A study of Mus musculus with 36 samples.

Results

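The Slc25 family is the set of mitochondrial carriers, membrane proteins that move nucleotides, phosphate, amino acids, acylcarnitines, metal ions and cofactors across the inner mitochondrial membrane. The members were taken as every protein-coding gene whose name begins with Slc25a, and 47 of the 46893 features in the count table met this rule. Carriers of the same fold with other names, such as the uncoupling protein Ucp3, fall outside it. Below, the family means these 47 genes. Expression was measured by RNA-seq in the gastrocnemius, a calf muscle, of 36 male C57BL/6 mice that entered the study at 3 to 4 weeks of age and were kept on their regimen for 12 weeks. There were 6 groups of 6 mice. NFD-C mice were sedentary and ate the AIN93G diet, and HFD-C mice were sedentary and ate a high-fat diet (HFD). The 4 exercise groups also ate the HFD and had a running wheel in the cage. HFD-U mice ran without a limit and averaged 8.3 km/day. A programmable wheel brake held the other groups to shorter distances, which were 2.1 km/day for HFD-25%, 4.2 km/day for HFD-50% and 6.3 km/day for HFD-75%. All mice were wild type and of 1 sex, running was voluntary, no group ran on the AIN93G diet, and whole muscle mixes fibre types.

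A carrier of this family is built of repeated units and usually exchanges 1 substrate for another. ADP/ATP and phosphate carriers feed ATP synthase, the aspartate/glutamate and oxoglutarate carriers belong to the malate-aspartate shuttle, and the carnitine/acylcarnitine carrier brings fatty acyl groups to beta-oxidation. In muscle, which burns and regenerates ATP at high rates during contraction, the ADP/ATP carrier is among the most abundant mitochondrial proteins.

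The libraries held 13060090 to 27981702 counts on genes (median 16710688). Levels below are in counts per 1000000 (CPM, scaled by TMM factors) for 1 gene between mice, and in CPM per kilobase of gene length (FPKM) wherever genes are set against each other. The labelled tissue was checked against 8 skeletal muscle genes, all of which were detected and whose sum was 77891 to 155563 CPM in every mouse. Of other cell types, 8 adipocyte genes summed to 2.07 to 92.7 CPM, 5 macrophage genes to 12.9 to 37.8 CPM, 5 endothelial genes to 99.1 to 374 CPM, 6 blood genes to 119 to 410 CPM and 5 Schwann cell genes to 15.3 to 184 CPM. Ucp1, which defines brown adipocytes, had 1 count in all. Slow fibre genes (9, among them Myh7 and Tnnt1) summed to 52.4 to 4513 CPM over the 36 mice and to 52.4 to 2144 CPM within NFD-C alone. In whole muscle, fewer cells of a type and less RNA per cell cannot be told apart.

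Libraries also fell into sets that nearly followed the groups. A group of 5 features linked to ribosomal RNA (mt-Rnr1, mt-Rnr2, Lars2, AY036118 and LOC118568312) took 2.01% to 3.8% of counts in 10 libraries, namely all 6 of NFD-C and HFD-C mice 1 to 4. In the other 26 libraries, HFD-C mice 5 and 6 and all 24 runners, they took 0.404% to 1.02%. HFD-C was the only group with libraries of both sets, so in a comparison of runners with NFD-C or with HFD-C mice 1 to 4 the set and running cannot be told apart. Members that passed against HFD-C are therefore also given with HFD-C mice 1 to 4 alone and with mice 5 and 6 alone, the controls of the runners' set. Nothing in the labels says whether libraries of a group came from separate extractions, so p-values measure the spread between these mice.

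The family took 0.419% to 0.725% of all counts in a library. Of the 47 members, 37 averaged 25 or more counts over the 36 mice and 10 did not (Slc25a2, Slc25a13, Slc25a18, Slc25a21, Slc25a31, Slc25a41, Slc25a43, Slc25a48, Slc25a53 and Slc25a54). Counts on 16 members could include reads of an overlapping gene. For 3 of those with enough counts to test, the overlapping gene itself had a mean count of at least 25: Slc25a11 overlaps Rnf167, Slc25a26 overlaps Lrig1 and Slc25a29 overlaps LOC118568020, each on the opposite strand, and the strand setting of the counting is not given in the sources used here. Members lay on 19 chromosomes, and 4 pairs of members were neighbours (Slc25a23 with Slc25a41, Slc25a24 with Slc25a54, Slc25a29 with Slc25a47 and Slc25a5 with Slc25a43).

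Family expression was dominated by 1 gene. Slc25a4, the ADP/ATP carrier of heart and muscle (chromosome 8, 46660205 to 46664099, GRCm39), averaged 2898 FPKM over the 36 mice. It made up 73.8% to 81.3% of the summed FPKM of the 47 members. Slc25a3, the phosphate carrier (chromosome 10, 90952436 to 90959902), averaged 459.9 FPKM. Together they held 86.8% to 91.5% of family FPKM in every mouse. Next among the 47 members came Slc25a11, the oxoglutarate/malate carrier, at 90.9 FPKM, and Slc25a20, the carnitine/acylcarnitine carrier, at 44.8. They were followed by Slc25a12, the aspartate/glutamate carrier of muscle and brain, at 38.8, and Slc25a5, the ADP/ATP carrier of proliferating cells, at 29.1.

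The next 6 in order of level were Slc25a28 (mitoferrin 2, an iron carrier) at 16.9 FPKM, Slc25a51 (the NAD carrier) at 14.3, Slc25a46 (an outer membrane protein of mitochondrial dynamics) at 11.9, Slc25a39 (a glutathione carrier) at 11.6, Slc25a33 (a pyrimidine nucleotide carrier) at 10.7 and Slc25a42 (a coenzyme A carrier) at 10.2 FPKM. Of all 47 members, 2 averaged above 100 FPKM, 10 between 10 and 100, 22 between 1 and 10, and 13 under 1. Paralogs were unequal: Slc25a13, the aspartate/glutamate carrier of liver, averaged 0.206 FPKM against 38.8 for Slc25a12, and Slc25a31, the ADP/ATP carrier of testis, 0.00597 FPKM.

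**Figure D1:**
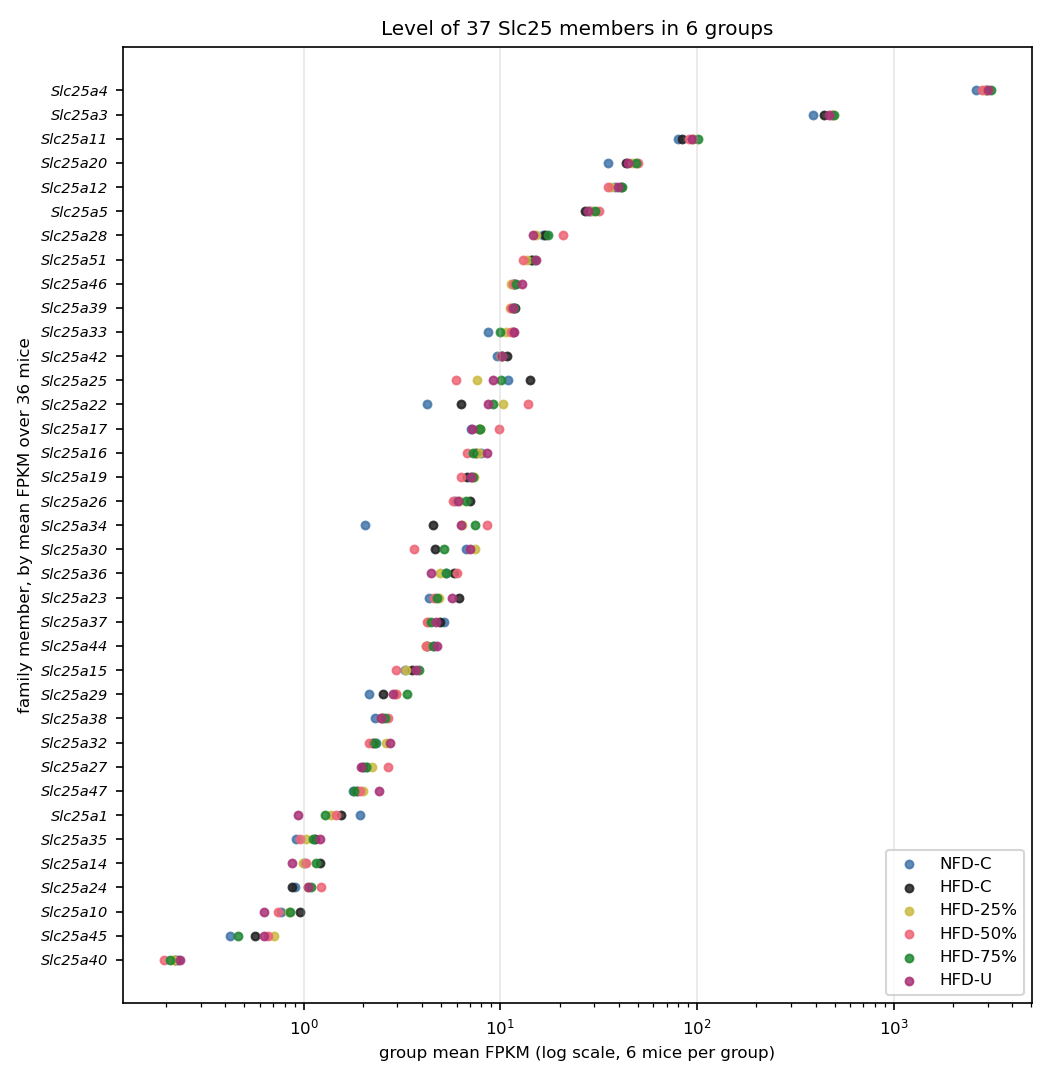
Group means of the 37 members with a mean count of at least 25, in FPKM on a log scale, 1 dot per group of 6 mice. Slc25a4 and Slc25a3 stand apart from the rest in all 6 groups, and the dots of Slc25a25, Slc25a22 and Slc25a34 are spread more widely than those of members with higher levels.

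The abundant members overlapped between groups. Slc25a4 had a lowest, median and highest value of 3133, 3604 and 3843 CPM in NFD-C, 3355, 3639 and 5354 CPM in HFD-C and 2472, 3718 and 4655 CPM in HFD-50%. Its log2 fold change in all 24 runners against HFD-C was 0.02 ± 0.11 (SE, n = 24 and 6), and that in HFD-C against NFD-C was 0.15 ± 0.14 (n = 6 and 6), with unadjusted edgeR p-values of 0.865 and 0.309. For Slc25a3 the median was 669.5 CPM in NFD-C and 768.4 CPM in HFD-C. In runners it was 820.8 (HFD-25%), 859.8 (HFD-50%), 820.6 (HFD-75%) and 790.5 CPM (HFD-U). The difference of runners from HFD-C was 0.13 ± 0.11 on the log2 scale, with an unadjusted p of 0.229 in edgeR. None of the 12 members with the highest FPKM passed an unadjusted p of at most 0.05 in any of the 4 running groups against HFD-C. With mouse number as a replicate block Slc25a11 did in HFD-75% and HFD-U. With HFD-C mice 5 and 6 as the only controls Slc25a28 did in HFD-25% (-0.36), Slc25a33 in HFD-75% (-0.50) and Slc25a39 in HFD-75% (-0.32) and HFD-U (-0.35), at unadjusted edgeR p-values of 0.0259, 0.0225, 0.0435 and 0.0196.

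The carriers of fuels and of the malate-aspartate shuttle overlapped between groups as well. Slc25a20 had 44.4, 76.1 and 104 CPM as its lowest, median and highest value in HFD-C, and 55.4, 84.8 and 128 CPM in HFD-50%. Slc25a11 had 144, 172 and 209 CPM in HFD-C and 177, 203 and 290 CPM in HFD-75%, with the largest difference of that member at 0.27 ± 0.13 on the log2 scale and an unadjusted p of 0.0623 (edgeR, n = 6 and 6). Slc25a12 had 288, 348 and 468 CPM in HFD-C and 195, 295 and 460 CPM in HFD-50%, a difference of -0.22 ± 0.19. In each case the ranges overlapped.

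To ask what running did on the HFD, each running group was compared with HFD-C in edgeR (quasi-likelihood test), and p-values were adjusted over all tested genes (Benjamini-Hochberg). The study's limit for counts of differentially expressed genes was an unadjusted DESeq2 p of at most 0.05. For shorter lists it used an adjusted p together with a minimum fold change. Counts of members at the unadjusted limit are given beside the share of all genes that met it. Since the 4 comparisons share the 6 HFD-C mice, their lists are not independent. HFD-25% had 3 of 37 members past it (all genes: 6.98%). HFD-50% had 5 of 37 (all genes: 10.7%), HFD-75% had 1 of 36 (all genes: 5.47%) and HFD-U had 1 of 37 (all genes: 5.46%). No member passed an adjusted p of at most 0.05 in any of these 4 edgeR fits, where 0.0082% of all genes did in HFD-25% and 0% in the other 3. In DESeq2, in order of distance, 44 of 12195, 160 of 12091, 40 of 12102 and 28 of 12018 genes did. Among them were 0, 2, 0 and 0 members. No member separated a running group from HFD-C without overlap (all genes: 0.377%, 0.792%, 0.272% and 0.291% in order of distance). The median log2 fold change of the members was -0.02, -0.05, 0.04 and 0.06 in the same order, against -0.01, 0.01, 0.00 and -0.01 for all genes, so each median of the members lay within 0.1 of that of all genes. The counts above are from fits without pairs. With mouse number as a replicate block, the pairing taken for HFD-U and HFD-C, HFD-U had 5 of 37 members past the unadjusted limit (all genes: 10.2%).

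**Figure D2:**
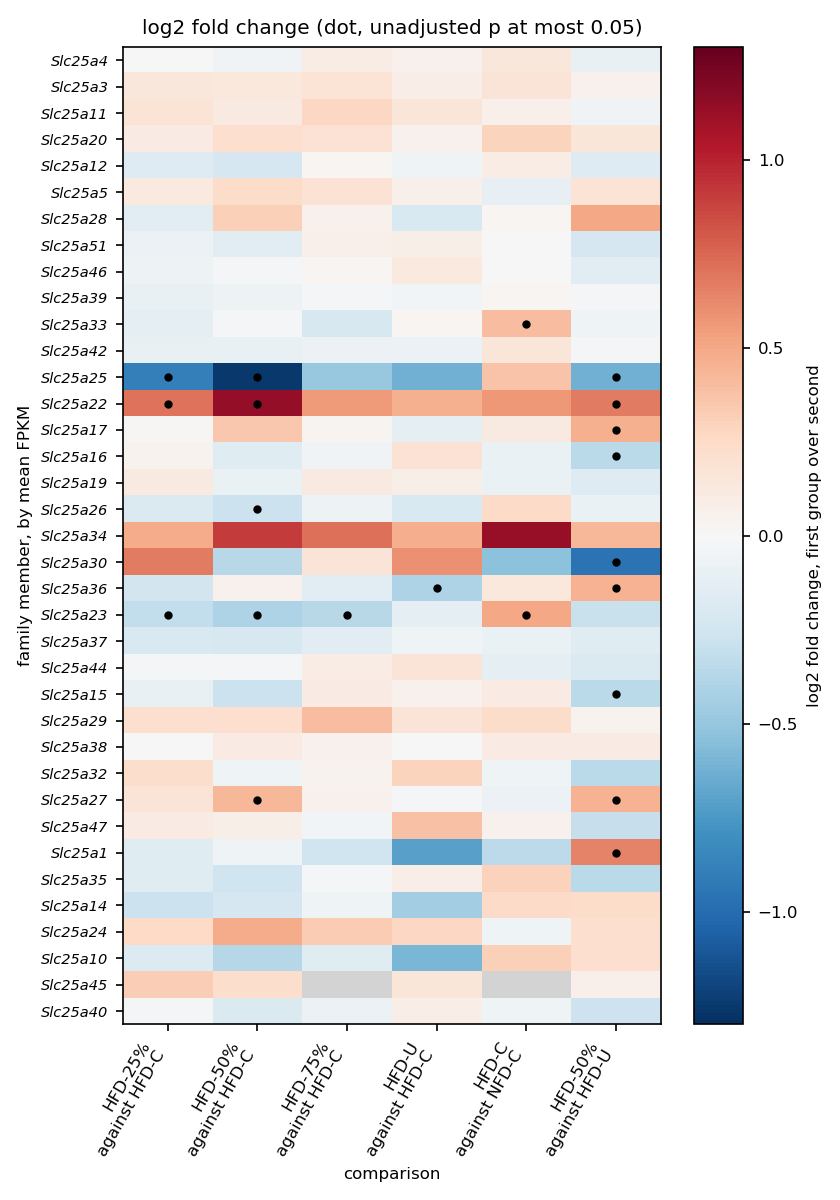
Log2 fold change of each of the 37 members in 6 comparisons of 6 against 6 mice, red for higher in the group named first, with a dot where the unadjusted p was at most 0.05 and grey where the member was not tested. Dots in the 4 columns against HFD-C fall mostly on Slc25a25, Slc25a22 and Slc25a23, and HFD-50% against HFD-U has the most, with 9.

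Slc25a22 was the only member with an edgeR adjusted p of at most 0.05 in the test among the 6 groups, but not under all settings, as given below. It encodes a glutamate/proton symporter that brings glutamate into the matrix (chromosome 7, 141009662 to 141017787, minus strand, GRCm39). Its lowest, median and highest values were 8.98, 13.8 and 20.8 CPM in NFD-C, and 9.91, 20.2 and 37.1 CPM in HFD-C. For the runners these values were 21.4, 31.5 and 60.3 CPM at 25%, 29.5, 40.1 and 77.1 CPM at 50%, 19.0, 25.6 and 64.1 CPM at 75% and 12.7, 28.5 and 45.8 CPM for HFD-U. Every running group overlapped HFD-C. The highest NFD-C value (20.8 CPM) lay just below the lowest of HFD-25% (21.4 CPM) and below that of HFD-50% (29.5 CPM). NFD-C and running groups were not compared in a test of their own, and the share of all genes without such overlap was not counted. They differ in diet, running and library set, which cannot be told apart here.

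Against HFD-C, Slc25a22 was higher by 1.14 ± 0.32 on the log2 scale in HFD-50% (n = 6 and 6, unadjusted p = 0.00291, edgeR adjusted p = 0.207) and by 0.71 ± 0.31 in HFD-25% (unadjusted p = 0.0352, edgeR adjusted p = 0.685). The differences in HFD-75% (0.56 ± 0.33) and HFD-U (0.46 ± 0.33) were not past the limit. With mouse number as a replicate block, the pairing taken for HFD-U and HFD-C, HFD-U was past it (0.47, unadjusted p = 0.0338, edgeR). Over all 24 runners it was 0.73 ± 0.29, with an unadjusted p of 0.0173. In the test for any difference among the 6 groups, 4 of 37 members passed the unadjusted limit (all genes: 12.2%), namely Slc25a22, Slc25a23, Slc25a25 and Slc25a34. Over 6 alternatives (edgeR or DESeq2) the call was kept in 6 for Slc25a23 and Slc25a25, 5 for Slc25a22 and 4 for Slc25a34. Their largest unadjusted p there was 0.0123, 0.0176, 0.105 and 0.244 in that order. Slc25a22 was the only one of the 4 past the adjusted limit, with an edgeR adjusted p of 0.0418 (all genes: 1.45%). That adjusted p was 0.00488 with mouse number as a replicate block, 0.00132 in DESeq2 and 0.584 with a term for the library set. It lay between 0.0208 and 0.102 when each of the 36 mice was left out in turn, above 0.05 for 18 of them. DESeq2 gave an adjusted p of 0.0343 for HFD-50% against HFD-C, and the edgeR alternatives that left out no single mouse gave 0.0890 to 0.493.

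With only HFD-C mice 5 and 6 as controls, the difference in HFD-50% was 1.18 (unadjusted p = 0.0250, edgeR), and with only HFD-C mice 1 to 4 it was 1.12 (unadjusted p = 0.00843), so its size was nearly the same with either set of controls. In HFD-25% the corresponding sizes were 0.76 and 0.70, neither past the limit, and in all runners they were 0.78 (unadjusted p = 0.118) and 0.72 (unadjusted p = 0.0466). Leaving out any 1 of the 12 mice kept HFD-50% between 0.94 and 1.36 and past the unadjusted limit each time, whereas HFD-25% lost the limit without any 1 of 7 of its 12 mice and was lowest, at 0.50, without HFD-25% mouse 6.

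Slc25a25 differed in the other direction. It is 1 of the calcium-regulated ATP-Mg/phosphate carriers, which set the adenine nucleotide content of the matrix (chromosome 2, 32304499 to 32341482, minus strand, GRCm39). The lowest, median and highest values were 69.5, 109 and 148 CPM in NFD-C and 58.3, 113 and 297 CPM in HFD-C. HFD-25% mice had 60.01, 71.4 and 105 CPM, HFD-50% mice 44.4, 52.6 and 86.0 CPM, HFD-75% mice 35.95, 96.2 and 181 CPM, and HFD-U mice 43.5, 94.6 and 135 CPM. The HFD-C values were uneven: mice 5 and 6 had 297 and 172 CPM, and mice 1 to 4 had 58.3 to 126.

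Slc25a25 was lower than in HFD-C by -1.25 ± 0.32 on the log2 scale in HFD-50% (unadjusted p = 0.00134, edgeR adjusted p = 0.163), and by -0.89 ± 0.31 in HFD-25% (unadjusted p = 0.0107, edgeR adjusted p = 0.532). At 75% and in HFD-U the differences were -0.49 ± 0.37 and -0.63 ± 0.35, not past the limit. In all runners it was -0.79 ± 0.25 (unadjusted p = 0.00393, edgeR adjusted p = 0.221). In DESeq2 the adjusted p for HFD-50% was 0.0109, in 1 edgeR fit over all 36 mice it was 0.0387 and with no minimum count it was 0.0436, while the alternatives that left out no single mouse otherwise gave 0.0619 to 0.348.

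The size depended on which controls were used. Against HFD-C mice 1 to 4 alone, Slc25a25 differed by -0.66 in HFD-50% (unadjusted p = 0.0120, edgeR), by -0.30 in HFD-25% (unadjusted p = 0.184) and by -0.19 in all runners (unadjusted p = 0.494). Against mice 5 and 6 alone the differences were -1.99, -1.62 and -1.53, the last with an edgeR adjusted p of 0.0478. In HFD-75% and HFD-U the differences were 0.10 and -0.03 against mice 1 to 4 (unadjusted p = 0.776 and 0.908) and -1.24 and -1.37 against mice 5 and 6 (unadjusted p = 0.0126 and 0.00249, edgeR). Without HFD-C mouse 5 the HFD-25% difference was -0.52 and that of HFD-50% was -0.88, both past the unadjusted limit. HFD-50% values were lower than HFD-C with either set of controls, and in HFD-25% and all runners the call rested on HFD-C mice 5 and 6.

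Slc25a23, another ATP-Mg/phosphate carrier (chromosome 17, 57350711 to 57366909, minus strand, GRCm39), was the only member past the unadjusted limit in 3 of the 4 running groups. Its lowest, median and highest values were 15.0, 16.1 and 19.0 CPM in NFD-C and 18.3, 24.2 and 27.7 CPM in HFD-C. HFD-25% mice had 13.7, 19.1 and 24.5 CPM, HFD-50% mice 13.2, 17.2 and 22.1 CPM, HFD-75% mice 14.8, 17.6 and 23.5 CPM, and HFD-U mice 15.3, 23.1 and 26.9 CPM. HFD-C was the highest of the 6 groups by its median, and 5 of its 6 mice lay above all NFD-C mice. Its log2 difference from HFD-C was -0.32 ± 0.14 for HFD-25%, -0.40 ± 0.14 for HFD-50% and -0.36 ± 0.13 for HFD-75%, with unadjusted p of 0.0383, 0.0131 and 0.0123 and edgeR adjusted p of 0.693, 0.328 and 0.694. In HFD-U it was -0.11 ± 0.15.

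With HFD-C mice 5 and 6 as the only controls, Slc25a23 in HFD-25%, HFD-50% and HFD-75% differed by -0.17, -0.25 and -0.22, none past the unadjusted limit in edgeR. With mice 1 to 4 alone, HFD-25% differed by -0.38 (unadjusted p = 0.0239), HFD-50% by -0.47 (unadjusted p = 0.00917) and HFD-75% by -0.43 (unadjusted p = 0.00643). Of the 3 calls, that in HFD-25% was lost without any 1 of 7 of the 12 mice, while the calls in HFD-50% and HFD-75% were kept without each of the 12.

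**Figure D3:**
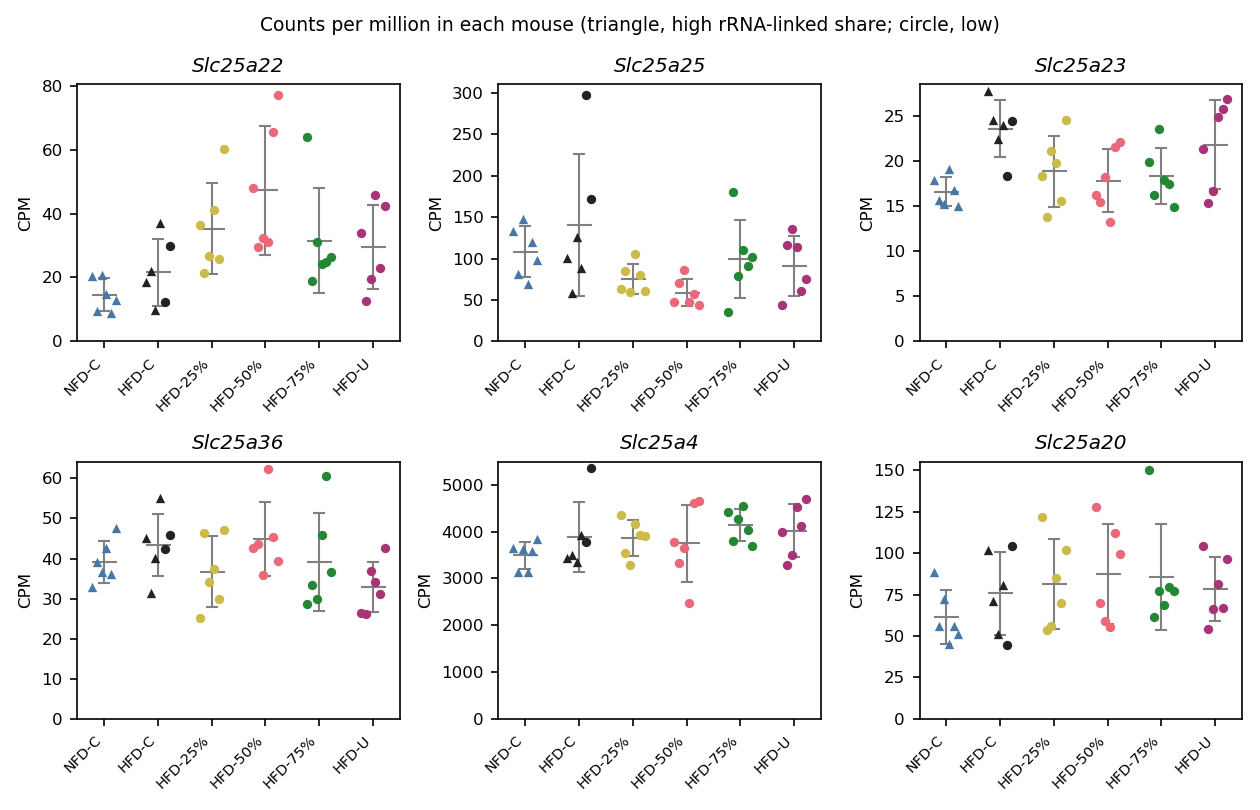
CPM of 6 members in each mouse, with the mean and SD of each group of 6 as grey bars, triangles for libraries with a high share of rRNA-linked features and circles for a low share. In HFD-C, 1 circle of Slc25a25 at 297 CPM is the highest of all 36 mice, Slc25a22 has its lowest values in NFD-C, and Slc25a4 and Slc25a20 overlap in all groups.

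The other members past the unadjusted limit against HFD-C differed by less. Slc25a26, the S-adenosylmethionine carrier, was lower in HFD-50% by -0.28 ± 0.12, and Slc25a27, an uncoupling protein relative, was higher there by 0.43 ± 0.20 (unadjusted p = 0.0349 and 0.0427, edgeR adjusted p = 0.424 and 0.451). Slc25a27 had 56.0 CPM in HFD-50% mouse 4 and 22.9 to 32.8 CPM in the other 5, and without mouse 4 the difference was 0.21 and not past the limit. Slc25a26 lost the limit without any 1 of 7 of the 12 mice, with differences from -0.35 to -0.24, and HFD-50% mouse 4 gave the smallest. Slc25a26 differed by -0.26 against HFD-C mice 1 to 4 alone and by -0.32 against mice 5 and 6 alone (unadjusted p = 0.0866 and 0.0789, edgeR). Slc25a27 differed by 0.46 and 0.39 (unadjusted p = 0.0684 and 0.233), so neither was past the limit with the controls of 1 set.

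In HFD-U, Slc25a36, a pyrimidine nucleotide carrier, was lower than in HFD-C by -0.40 ± 0.15 (unadjusted p = 0.0168, edgeR adjusted p = 0.790). Its lowest, median and highest values were 31.4, 43.8 and 55.1 CPM in HFD-C and 26.2, 32.6 and 42.6 CPM in HFD-U, and the call was kept without each of the 12 mice. Against HFD-C mice 1 to 4 alone the difference was -0.38 and against mice 5 and 6 alone -0.42 (unadjusted p = 0.0441 and 0.0413, edgeR). Mice of the same number deviated together in this comparison, and with mouse number as a replicate block 5 members passed in place of 1, while the share of all genes that passed went from 5.46% to 10.2%. In edgeR these were Slc25a36 with a log2 difference of -0.40, Slc25a30 with 0.78, Slc25a22 with 0.47, Slc25a32 with 0.31 and Slc25a11 with 0.16, at unadjusted p-values of 0.00283, 0.00693, 0.0338, 0.0399 and 0.0445. Slc25a30 is another uncoupling protein relative and Slc25a32 carries folate and flavin. The smallest edgeR adjusted p among them was 0.239.

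When the 24 runners were pooled, 4 of 37 members passed the unadjusted limit against HFD-C (all genes: 9.27%). They were Slc25a25, Slc25a22 and Slc25a23, as above, and Slc25a26 at -0.19 ± 0.09 (unadjusted p = 0.0446, edgeR), which was -0.16 against HFD-C mice 1 to 4 alone and -0.22 against mice 5 and 6 alone, neither past the limit. The edgeR adjusted p was 0.221 to 0.526 over the 4 members (all genes past the adjusted limit: 0.3%; without overlap between groups: 0.00833%, and no member). Slc25a23 in all runners was -0.30 ± 0.12, -0.36 against HFD-C mice 1 to 4 alone and -0.15 against mice 5 and 6 alone.

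Distance was also tested as a linear and a quadratic term. Over the 30 mice on the HFD, 3 of 37 members passed the unadjusted limit (all genes: 12.2%). These were Slc25a23, Slc25a25 and Slc25a22, with unadjusted edgeR p-values of 0.00800, 0.0151 and 0.0170 and adjusted ones of 0.206, 0.261 and 0.266 (all genes past the adjusted limit: 0.683%). Over the 24 runners alone, 1 member passed (all genes: 8.49%), the mitoferrin Slc25a28 with an unadjusted p of 0.0427 and an edgeR adjusted p of 0.568 (all genes past the adjusted limit: 0.0419%). Its medians were 28.8, 32.2, 33.1 and 27.3 CPM from HFD-25% to HFD-U, and 1 mouse, HFD-50% mouse 4, had 77.8 CPM against 29.1 to 34.2 in the other 5.

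The diet was compared in sedentary mice, with the same 6 HFD-C mice that served as controls of the runners. Diet and running differences are therefore not independent. In HFD-C against NFD-C, 2 of 36 members passed the unadjusted limit (all genes: 4.12%), both higher on the HFD (all genes: 2.14% higher), and none without overlap (all genes: 0.229%). Slc25a23 was higher by 0.50 ± 0.11 (unadjusted p = 0.000495, edgeR adjusted p = 0.795) and Slc25a33 by 0.40 ± 0.14 (unadjusted p = 0.0124, edgeR adjusted p = 0.9996). The lowest, median and highest values of Slc25a33 were 17.3, 19.5 and 23.0 CPM in NFD-C and 19.0, 26.0 and 37.6 in HFD-C. Both calls were kept without each of the 12 mice. All NFD-C libraries had a high rRNA-linked share, and within that set of libraries (6 NFD-C and 4 HFD-C) Slc25a23 was higher by 0.57 (unadjusted p = 0.000194, edgeR) and Slc25a33 by 0.24, the latter not past the limit. No member had an adjusted p at or under 0.05, nor did any gene (0%). Slc25a34, a carrier whose substrate is not well established, had the largest difference at 1.13 ± 0.54 with an unadjusted p of 0.0522, from medians of 3.99 and 11.6 CPM.

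HFD-50% and HFD-U, which ran 4.2 and 8.3 km/day, were compared directly, and share no control mice. Here 9 of 37 members passed the unadjusted limit (all genes: 12.4%), 5 of them higher and 4 lower in HFD-50% (all genes: 7.08% and 5.34%). None was without overlap (all genes: 0.903%) and none had an adjusted p at or under 0.05 (all genes: 0.00844%). The 3 with the smallest p among the higher were Slc25a36 (0.45 ± 0.15), Slc25a17, the peroxisomal carrier of coenzyme A and nucleotides (0.46 ± 0.20), and Slc25a1, the citrate carrier (0.65 ± 0.29). Among the lower they were Slc25a25 (-0.63 ± 0.26), Slc25a30 (-0.96 ± 0.42) and Slc25a15, the ornithine carrier (-0.35 ± 0.16). The unadjusted p was 0.0106 for Slc25a36 and 0.0271 to 0.0489 for the other 8, and the edgeR adjusted p was 0.286 to 0.399.

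Slc25a36 had 35.9, 43.2 and 62.3 CPM as its lowest, median and highest value in HFD-50% and 26.2, 32.6 and 42.6 in HFD-U, and was the only 1 of the 9 whose call was kept without each of the 12 mice. Slc25a30 had 1.16, 16.5 and 25.2 CPM in HFD-50% and 19.4, 29.5 and 41.5 in HFD-U, with 1 mouse at 1.16 CPM. The remaining 3 of the 9 were Slc25a27 (0.45), Slc25a22 (0.68) and Slc25a16 (-0.35). Leaving out 1 mouse gave counts from 2 to 9 members (all genes: 8.51% to 17.4%).

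The promoter windows that RefSeq gives for these genes were read for 5 short motifs, on both strands. Each window runs from 250 bases before to 50 after an annotated start in GRCm38.p6, and 36 members had 46 windows. The cAMP response element TGACGTCA, the site of CREB family factors, was in 2 of the 46 (4.35%, against 1.79% of all 32851 windows), those of Slc25a25 and Slc25a36, and both are shown because these members passed the unadjusted limit in opposite directions between HFD-50% and HFD-U. They are printed 5′ to 3′ on the gene's strand, with motifs in capitals. The Slc25a25 window is the third of 3 and has the element at position -150 from the start, and that of Slc25a36 also holds an E-box, CACGTG, at position -187.
Slc25a25, chr2:32424017-32424316, minus strand: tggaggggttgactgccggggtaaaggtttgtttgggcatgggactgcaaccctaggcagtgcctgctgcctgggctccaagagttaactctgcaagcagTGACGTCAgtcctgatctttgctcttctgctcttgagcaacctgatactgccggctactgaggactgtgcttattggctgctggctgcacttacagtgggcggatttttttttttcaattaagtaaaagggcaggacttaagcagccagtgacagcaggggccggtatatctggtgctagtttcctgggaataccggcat
Slc25a36, chr9:97110992-97111291, minus strand: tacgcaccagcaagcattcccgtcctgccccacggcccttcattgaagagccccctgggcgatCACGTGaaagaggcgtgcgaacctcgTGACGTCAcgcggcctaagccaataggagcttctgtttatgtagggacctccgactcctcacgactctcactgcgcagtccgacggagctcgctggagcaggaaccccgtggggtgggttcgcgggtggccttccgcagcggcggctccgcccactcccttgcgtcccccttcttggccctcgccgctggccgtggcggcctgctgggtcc

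The E-box CACGTG was in 8 of the 46 windows (17.4%, against 7.15% of all windows), from 7 members: Slc25a1, Slc25a13, Slc25a14, Slc25a15, Slc25a31, Slc25a33 and Slc25a36. The ERR half-site AAGGTCA was in 1 window, that of Slc25a34 (all windows: 4.72%). None held the FOXO motif GTAAACA (all windows: 3.65%) or the D-box TTATGTAA (0.938%). The 3 windows of Slc25a22 and the 2 of Slc25a23 held none of the 5. Matches describe these letters in these windows only.

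Slow fibre level moved with 2 of the 3 members that had the smallest p in all runners against HFD-C. Over the 36 mice, with group means removed, the log2 level of Slc25a22 went with the summed slow fibre genes at Pearson's r = 0.6251 (permutation p = 0.00018, adjusted over 3 relations 0.00027) and Spearman's rho = 0.597 (permutation p = 0.00049). For Slc25a23, r was 0.679 (permutation p = 1e-05, the smallest the permutations can give, adjusted 3e-05) and rho 0.718 (permutation p = 3e-05). For Slc25a25, r was -0.10 (permutation p = 0.570) and rho -0.11. Without the 2 mice farthest from the median slow fibre level, r was 0.601, 0.680 and -0.15. Only these 3 members were set against the slow fibre sum. The share of all genes, or of the other members, that follow it as closely was not counted. The permutations, made within groups, also take mice as exchangeable, although mice of the same number deviated together in some comparisons. The median of the slow fibre sum was 146 CPM in NFD-C and 1272 CPM in HFD-C. It was 1108 (HFD-25%), 1926 (HFD-50%), 803 (HFD-75%) and 783 CPM (HFD-U) in runners. By medians, the sum and Slc25a22 were both lowest in NFD-C and highest in HFD-50%, but the other groups were ordered differently. The HFD-C median of the sum lay above those of HFD-25%, HFD-75% and HFD-U. That of Slc25a22 in HFD-C (20.2 CPM) lay below all 4 running groups (25.6 to 40.1 CPM). Slc25a23 had a median of 24.2 CPM in HFD-C and 17.2 CPM in HFD-50%.

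With the slow fibre level as a covariate, chosen after the data were seen, Slc25a22 in HFD-50% against HFD-C went from 1.14 to 0.79 (unadjusted p = 0.00731, edgeR), in HFD-50% against HFD-U from 0.68 to 0.13 (unadjusted p = 0.616), and in HFD-C against NFD-C from 0.56 to 0.07 (unadjusted p = 0.818). Its adjusted p over the 6 groups was then 0.426. Slc25a23 went the other way: HFD-50% against HFD-C went from -0.40 to -0.54 (unadjusted p = 0.00199) and HFD-50% against HFD-U from -0.29 to -0.63 (unadjusted p = 0.000575). Its distance test over the 30 mice on the HFD reached an edgeR adjusted p of 0.00849. That test takes in HFD-C, where 4 libraries had a high rRNA-linked share and no runner did. Over 7 alternatives (edgeR or DESeq2) its unadjusted p was 1.27e-05 to 0.133, past the limit in 5. With the covariate over the 24 runners alone, the smallest edgeR adjusted p of any member was 0.153. For Slc25a25 in HFD-50% against HFD-C the value was -1.16 (unadjusted p = 0.00634).

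**Figure D4:**
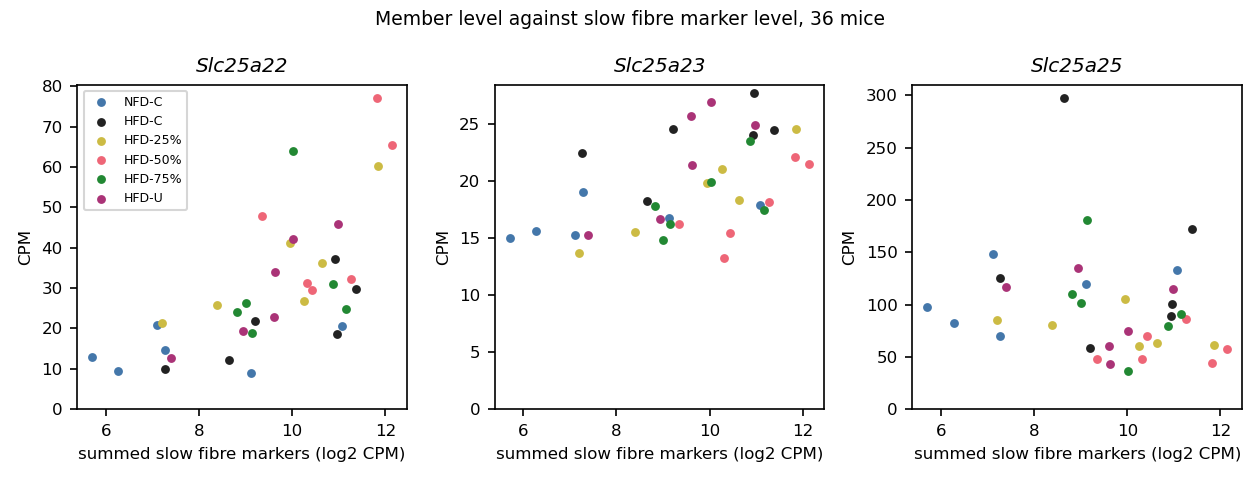
CPM of 3 members in each of the 36 mice against the log2 of the summed CPM of 9 slow fibre genes, coloured by group. Slc25a22 and Slc25a23 are higher where the slow fibre level is higher (r = 0.6251 and 0.679 with group means removed), and Slc25a25 has no such slope (r = -0.10).

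Within groups, the spread of many members followed the mouse number in the labels. Slc25a12 was highest in the mouse numbered 1 in 6 of 6 groups, at 449 to 555 CPM, and in every group its value was 1.41 to 1.75 times the median of the other 5 mice. Slc25a46 was highest in mouse 1 in 6 of 6 groups too, at 61.1 to 71.1 CPM, and Slc25a20 and Slc25a44, the branched-chain amino acid carrier, were in 5 of 6. Slc25a27 was lowest in mouse 1 in 5 of 6 groups. Over all, 8 of 37 members (21.6%) were highest in mouse 1 in at least 4 groups, against 0 to 2 for each of the other 5 numbers.

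The pattern was not confined to the family. Of all 12053 genes past the minimum count, 13.96% were highest in mouse 1 in at least 4 groups and 514 in all 6, while for each other number 0 to 4 genes were highest in all 6. Of the members, 2 (5.41%) were highest in mouse 1 in all 6, against 4.26% of all genes. HFD-75% mouse 1 was the highest of its group for 15 of 37 members (40.5%; all genes: 25.8%), among them Slc25a20 at 150.0 CPM against 61.2 to 79.6 in the other 5. HFD-50% mouse 4 was the lowest of its group for 19 of 37 members (51.4%; all genes: 30.7%). What the numbers mark is not given in the labels.

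**Figure D5:**
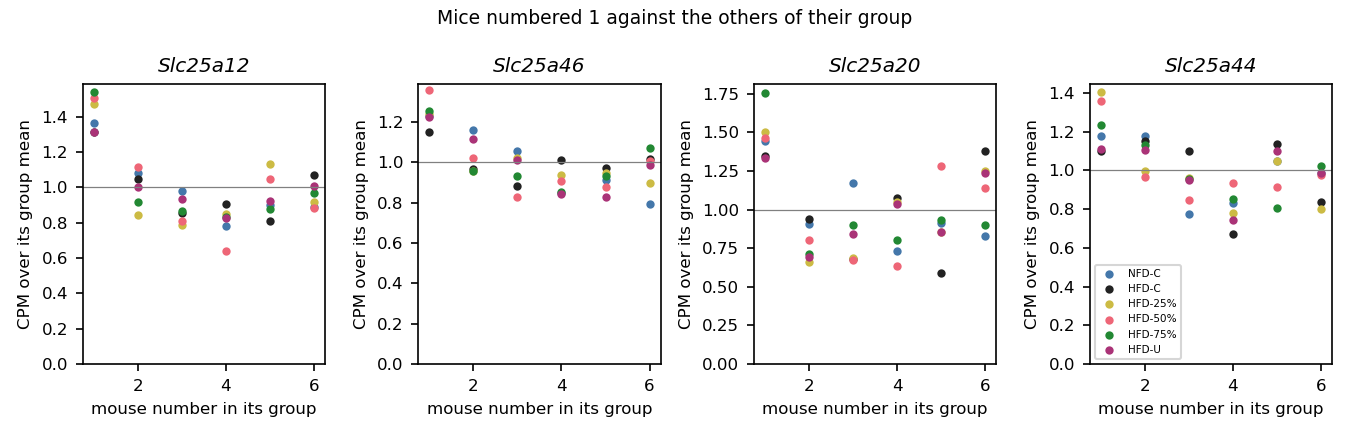
CPM of 4 members divided by the mean of the mouse's group, against the mouse number in the labels, coloured by group. For Slc25a12 and Slc25a46 the mouse numbered 1 is the highest in all 6 groups, and for Slc25a20 and Slc25a44 in 5 of 6.

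By role, 2 of the 3 tested ATP-Mg/phosphate carriers passed in HFD-25%, HFD-50% and all runners (Slc25a25 and Slc25a23, all genes: 6.98%, 10.7% and 9.27%), and the third, Slc25a24, did not pass in any comparison. These comparisons share the HFD-C mice, and all runners include HFD-25% and HFD-50%, so they are not separate results. In HFD-25% and all runners, Slc25a25 was not past the limit against HFD-C mice 1 to 4 alone. Slc25a23 was not past it in HFD-25% or HFD-50% against mice 5 and 6 alone. Among the ADP/ATP, phosphate, carnitine/acylcarnitine and glutathione carriers (6 members tested), none passed in any of the 10 comparisons with all controls. The 9 carriers of cofactors and nucleotides gave 1 call each in HFD-50%, HFD-U, all runners and HFD-C against NFD-C (all genes in the last 3: 5.46%, 9.27% and 4.12%), and 3 in HFD-50% against HFD-U (all genes: 12.4%). The carriers of basic and branched-chain amino acids and glycine (4 tested) gave 1, Slc25a15 in HFD-50% against HFD-U, and the citrate and dicarboxylate carriers also 1, Slc25a1. Slc25a10, the dicarboxylate carrier, differed by -0.59 ± 0.35 in HFD-U against HFD-C, with an unadjusted p of 0.106 in edgeR.

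Genes that work beside the members, and carriers of the same fold with other names, were counted as well. The limit and the shares of all genes were the same (6.98%, 10.7%, 5.47% and 5.46% in order of distance, 4.12% for the diet and 12.4% for HFD-50% against HFD-U). Of the uncoupling proteins and other genes of the same fold (4 tested), Ucp3, which is expressed mainly in muscle, was higher than in HFD-C by 0.54 ± 0.22 for HFD-25%, 0.66 ± 0.20 for HFD-50% and 0.70 ± 0.22 for HFD-75%, and lower in HFD-C than in NFD-C by -0.58 ± 0.19 (unadjusted edgeR p from 0.00530 to 0.0257). Its median was 448.5 CPM in NFD-C and 281 CPM in HFD-C, and among runners 441 (HFD-25%), 478 (HFD-50%), 477 (HFD-75%) and 348 CPM (HFD-U). Ucp2 passed in HFD-50%, at 0.42 ± 0.20 against HFD-C and 0.58 ± 0.21 against HFD-U. Neither Ucp3 nor Ucp2 had an edgeR adjusted p at or under 0.05 in these comparisons. For Ucp3 it was 0.657 in HFD-25% and 0.253 in HFD-50% against HFD-C. The diet and running differences of Ucp3 all rest on the same 6 HFD-C mice, the only group with libraries of both sets. Values with the controls of 1 set were not taken.

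Of 14 other genes of mitochondrial transport, Sfxn3, a sideroflexin, was lower in all runners by -0.48 ± 0.13 and Mpc1, a pyruvate carrier subunit, was higher by 0.29 ± 0.10 (unadjusted p = 0.000806 and 0.00655, edgeR adjusted p = 0.114 and 0.269). Among the 6 groups Mpc1 had an edgeR adjusted p of 0.0490 (all genes past the adjusted limit: 1.45%), with medians from 60.9 CPM in NFD-C and 64.3 in HFD-C to 92.8 in HFD-U. NFD-C and HFD-C are the 2 groups that hold the libraries with a high rRNA-linked share. With a term for the library set, the genes past the adjusted limit in this test went from 175 to 4. Values under other settings were not taken for these partner genes, so that of Mpc1 with this term is not known. Carnitine shuttle enzymes (5 tested) gave no call in any running group against HFD-C. Cpt1b, the muscle carnitine palmitoyltransferase, was higher in HFD-50% than in HFD-U by 1.04 ± 0.37 (unadjusted p = 0.0132, edgeR adjusted p = 0.294). Its counted level was low, with medians of 3.85 CPM in HFD-50% and 2.04 CPM in HFD-U, and a lowest value of 0.493 CPM in HFD-U. Overlapping genes were looked up for members only, so whether the count of Cpt1b holds all of its reads is not known. Cpt1b also had the smallest p of the partner genes for distance over the 24 runners (unadjusted p = 0.00714, edgeR adjusted p = 0.352, all genes at the unadjusted limit: 8.49%). Cpt1a, the carnitine palmitoyltransferase of liver, was lower in HFD-C than in NFD-C by -0.39 ± 0.16 (unadjusted p = 0.0276, edgeR adjusted p = 0.9996). The 6 enzymes of the malate-aspartate and glycerol phosphate shuttles gave 1 call, Gpd2 at -0.45 ± 0.19 in HFD-50% against HFD-U, and the 9 tested genes of the import pathway for carriers also 1, Timm29 at -0.43 ± 0.19 there. Neither had an edgeR adjusted p at or under 0.05.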

How the data were processed

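Poly(A)-selected, paired-end RNA-seq libraries of gastrocnemius from 36 mice were analysed. The authors aligned reads with HISAT2 2.0.5 and counted them on genes with featureCounts 1.5.0-p3, per the labels, and the deposited values were raw counts per gene and library. The processing notes name mm10, while the chromosome accessions beside the counts are those of GRCm39, and coordinates of genes are given in that build. Members and lists were chosen with earlier results of these data known.

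The tests were those of edgeR 4.0.16 in R 4.3.3 (TMM, quasi-likelihood F-test, two-sided). A gene was tested where it averaged 25 or more counts over the libraries fitted, and p-values were adjusted by Benjamini-Hochberg over all of them. SE values were computed as the absolute log2 fold change over the square root of F. CPM used TMM factors over the 36 libraries, and FPKM is CPM per kilobase of the gene length beside the counts. Comparisons were each running group, all runners and NFD-C with HFD-C, HFD-50% with HFD-U, any of the 6 groups, and distance (linear and quadratic). Alternatives were DESeq2 1.42.0, RLE factors, no minimum count, a replicate block, 1 fit over 36 mice, a term for or only 1 of the library sets (divided at 1.5%), and each mouse left out. Controls of the high set alone, the slow fibre covariate and the mice left out of the 6-group test were added after seeing the data.

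Same-numbered mice deviated together in HFD-U against HFD-C (correlations 0.125 to 0.51, above 0.1 for 6 of 6 pairs), so their numbers were taken as pairs in the replicate block. Elsewhere 1 to 5 of 6 pairs were above 0.1. Counts, SE values and fits with 1 mouse left out are without pairs unless the block is named, also for HFD-U against HFD-C. Replicates of a group differed by 13.4 to 162 times sampling variance over 90 pairs, and none was a duplicate. Named were the 12 members of highest FPKM, those at an unadjusted p of at most 0.05 (where over 6, the 3 smallest p per direction) and the one with most counts per role, and up to 3 partners by p per comparison. Slc25a32, less expressed paralogs and the pattern with mouse number were chosen after their values were seen. On simulated counts for HFD-50% against HFD-C, 68.9% of genes changed by 1 on the log2 scale were recovered at an adjusted p of 0.05 and 0.503% of those changed by 0.5. Promoter sequences were those of RefSeq (GRCm38.p6), and 36 members matched by symbol.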

Additional observations from a re-analysis of the deposited data

Results flagged for a closer look

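Among 120 groups of 6 mice (20 members that the text turns on, in 6 groups), 13 values stood apart from the other 5 of their group by a gap that Dixon's test places past its limit. That limit flags about 1 in 20 groups when values are independent and normally spread. CPM was taken without a log, members of 1 mouse are not independent, and the members were chosen by their calls or levels. The 13 of 120 therefore cannot be set against that rate. HFD-75% mouse 1 was the highest for 5 members, with 290.3 CPM of Slc25a11 (177 to 216 in the others), 555 of Slc25a12 (300.3 to 349), 150.0 of Slc25a20, 64.1 of Slc25a22 (19.0 to 31.1) and 58.3 of Slc25a34 (7.8 to 19.7). HFD-50% mouse 4 was the highest for 4, with 56.0 CPM of Slc25a27, 77.8 of Slc25a28, 53.5 of Slc25a33 (18.2 to 21.2) and 62.3 of Slc25a36 (35.9 to 45.4). HFD-U mouse 1 had 449 CPM of Slc25a12 (282 to 345). In HFD-C, mouse 4 had 23.2 CPM of Slc25a17 (7.29 to 12.9), mouse 6 had 5354 CPM of Slc25a4 (3355 to 3924), and mouse 3 was low in Slc25a26 with 14.2 CPM (18.6 to 20.9).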

How the results depend on the processing

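Counts of members at an unadjusted p of at most 0.05 moved by over 1.5 times under these settings. The share of all genes follows each count or set of counts. With the replicate block they were 8 for HFD-50%, 2 for HFD-75% and 5 for HFD-U against HFD-C (14.1%, 6.89% and 10.2%), 7 for any of the 6 groups (20.3%), 5 for distance over 30 mice and 4 over 24 (17.6% and 12.5%). Same-numbered mice correlated above 0.1 in 6 of 6 pairs for HFD-U against HFD-C and in 5 of 6 for HFD-50%. HFD-75% gave 2 with no minimum count, 4 with a term for the library set, 5 with 1 set and 3 with the slow fibre covariate (8.28%, 8.98%, 8.99% and 5.78%). HFD-U gave 3, 7, 8 and 3 in the same order (8.67%, 11.9%, 11.8% and 6.39%), and 2 in DESeq2 (5.84%). HFD-C against NFD-C gave 5 with no minimum count and 1 with the slow fibre covariate (8.59% and 2.31%), HFD-50% against HFD-U 4 with that covariate (8.89%), and distance over 24 mice 3 with no minimum count (13.1%). With controls of the high set alone, HFD-25% gave 1, HFD-50% 3 and all runners 2 (8.4%, 10.7% and 10.1%). Without 1 mouse, HFD-25% gave 1 to 3 members (5.16% to 8.86%), HFD-50% gave 4 to 6 (8.46% to 13.5%), HFD-75% gave 1 to 2 (4.23% to 6.64%) and HFD-U gave 1 to 4 (4.38% to 6.89%). HFD-C against NFD-C gave 2 to 6 (3.08% to 6.41%) and HFD-50% against HFD-U 2 to 9 (8.51% to 17.4%). The adjusted p of Slc25a22 over the 6 groups was 0.584 with a term for the library set, 0.426 with the covariate and 0.0208 to 0.102 without 1 mouse, and 0.00132 (DESeq2) to 0.0406 with the replicate block, RLE factors, no minimum count and DESeq2. The cause was not tested. Of the values of single called members, 55 of 246 under other settings and 80 of 252 without 1 mouse lost the limit, and none reversed. With 6 mice a group, changes near 0.5 on the log2 scale were rarely recovered.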
